A study of Mus musculus with 6 samples.

Results

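The Pax, Lhx, Dlx, Six-family, Irx, Tbx and Nkx genes encode transcription factors that lay out organs and body regions in the embryo. They were examined here in ATAC-seq peak lists from spermatogonia of newborn mice, with the Hox genes set aside as a separate group. Every protein-coding gene whose mm10 symbol is one of the first 6 names and a number, or Nkx and a pair of numbers, was taken, apart from a small number of genes not analysed here. This gave 60 genes out of 21436 protein-coding genes for which a 5′ end could be placed. They comprised 8 Pax, 7 Lhx, 6 Dlx, 6 Six-family, 6 Irx, 13 Tbx and 14 Nkx genes on 17 chromosomes. The rule used gene symbols and no measured value, though it was set with earlier results of these data known.

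Spermatogonia were isolated at postnatal day 5 from testes of wild-type (WT) mice and of mice lacking Sirt7 (Sirt7-/-, labelled S7KO), a gene for a nuclear NAD+-dependent deacylase. Both genotypes shared an inbred background other than C57BL/6J, the strain of the mm10 reference on which the reads were placed. The deletion was present in the whole animal, so the somatic cells of these testes lacked Sirt7 as well. There were 3 S7KO libraries and 3 WT libraries, titled 1, 2 and 4 in both genotypes, each made from 50000 cells that had been enriched by plating and not sorted. The study describes the libraries of a genotype as independent biological replicates, and the labels do not tie each library to an animal.

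ATAC-seq cuts open chromatin with the Tn5 transposase, and a peak is a stretch where cuts pile up above the surroundings. Homeobox and T-box factors bind DNA through the homeodomain or the T-box domain, and Pax factors also through a paired domain. In cells that do not use them, the promoters of such genes are classically held by Polycomb complexes over long CpG-rich stretches, which may carry both activating and repressive histone marks. Germ cells are known for keeping many developmental genes in this state. Peaks alone do not show whether a gene was transcribed, and no expression value enters what follows. A peak also cannot tell a site open in a few cells from a site weakly open in all of them.

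The 6 libraries held 105728 to 133663 peaks on the chromosomes and covered 81.5 to 107.7 Mb, with WT 2 lowest in both. A peak lay within 1 kb of the 5′ end of Sirt7 in all 6 libraries and 2 peaks touched its gene body in each, so the peak lists do not check the deletion. Of 11 spermatogonial marker genes, 11 had a peak within 1 kb of the 5′ end in all 6 libraries. The same held for 6 of 7 Sertoli cell, 3 of 6 Leydig cell, 4 of 4 peritubular myoid cell, 2 of 3 endothelial and 0 of 3 blood cell markers. Ptprc and Adgre1, which mark blood cells, had no peak within 3 kb in any library. Csf1r, the other blood cell marker, had a peak within 1 kb in 5 libraries and within 3 kb in all 6. The summed covered length within 3 kb of the Sertoli markers was 13.9 to 14.7 kb in S7KO and 14.0 to 15.5 kb in WT, and that of the spermatogonial markers 23.2 to 24.5 kb and 21.2 to 24.4 kb. Leydig markers summed to 5.02 to 5.55 kb in S7KO and 4.92 to 6.48 kb in WT, myoid markers to 8.33 to 9.10 kb and 7.79 to 8.72 kb, endothelial markers to 3.74 to 4.20 kb and 3.16 to 4.12 kb, and blood markers to 0.78 to 1.31 kb and 0.723 to 1.12 kb. The ranges of the genotypes overlapped for each of the 6 cell types. Sertoli and myoid promoters were thus open in these samples too, and the part of somatic cells in the results below was not tested.

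The range of promoter states can be read from 5 genes, chosen because the RefSeq promoter table of the same build gives each a single start at the end of the gene. The 250 bases before the start are shown 5′ to 3′ on the strand of the gene, with each CG dinucleotide, the target of DNA methylation, in capitals. Nkx6-2, a regulator of neurons and oligodendrocytes, and Nkx3-2, which acts in cartilage and spleen formation, are shown because their promoters were among the most widely open. Six6, an eye and pituitary gene, is shown because its covered length did not overlap between genotypes. Tbx19, which drives the pituitary corticotroph programme, had a peak in only 2 libraries, and Tbx10, a further T-box gene, in none.
Nkx6-2: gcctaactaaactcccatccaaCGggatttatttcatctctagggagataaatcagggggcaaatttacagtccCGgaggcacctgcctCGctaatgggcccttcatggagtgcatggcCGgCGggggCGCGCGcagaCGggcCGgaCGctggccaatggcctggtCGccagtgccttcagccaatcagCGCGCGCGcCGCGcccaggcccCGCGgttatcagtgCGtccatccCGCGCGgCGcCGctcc
Nkx3-2: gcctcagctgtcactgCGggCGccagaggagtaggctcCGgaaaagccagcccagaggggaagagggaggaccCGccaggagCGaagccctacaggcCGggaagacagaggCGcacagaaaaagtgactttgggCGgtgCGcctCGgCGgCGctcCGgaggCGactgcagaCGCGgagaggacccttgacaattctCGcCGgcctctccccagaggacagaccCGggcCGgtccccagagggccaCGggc
Six6: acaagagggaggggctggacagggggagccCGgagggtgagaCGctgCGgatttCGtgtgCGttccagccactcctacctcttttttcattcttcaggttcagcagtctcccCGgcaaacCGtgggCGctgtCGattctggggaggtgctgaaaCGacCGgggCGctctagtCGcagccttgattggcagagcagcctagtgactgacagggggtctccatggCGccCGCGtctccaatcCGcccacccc
Tbx19: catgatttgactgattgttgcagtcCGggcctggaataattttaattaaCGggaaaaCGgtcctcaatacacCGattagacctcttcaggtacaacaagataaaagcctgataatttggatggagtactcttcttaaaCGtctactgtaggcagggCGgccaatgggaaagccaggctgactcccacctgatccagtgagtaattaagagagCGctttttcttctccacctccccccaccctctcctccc
Tbx10: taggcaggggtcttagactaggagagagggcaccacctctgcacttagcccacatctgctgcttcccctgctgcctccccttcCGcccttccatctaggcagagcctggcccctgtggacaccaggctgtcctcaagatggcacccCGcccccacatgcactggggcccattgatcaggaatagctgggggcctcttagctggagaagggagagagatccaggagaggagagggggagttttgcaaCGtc

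These stretches lie at chr7:139582798-139583047 on the minus strand for Nkx6-2, chr5:41764221-41764470 on the minus strand for Nkx3-2, and chr12:72939632-72939881 on the plus strand for Six6. That of Tbx19 is chr1:165160774-165161023 on the minus strand and that of Tbx10 is chr19:3992502-3992751 on the plus strand, all in GRCm38 (mm10). The number of CG dinucleotides in them was 26 for Nkx6-2, 21 for Nkx3-2, 17 for Six6, 7 for Tbx19 and 3 for Tbx10. Over the 17491 promoters of the table the median was 10, and 23.1% held 20 or more. In Nkx6-2 most of them lie in the stretch next to the start, while in Tbx10 the stretch is as rich in G and C (61.2% against 65.2%) but holds few CG pairs. The table held only 42 of the 60 genes (70%), which is too few to compare base composition over the whole set, and that comparison is void.

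Nearly all 60 genes had open chromatin at their 5′ ends in both genotypes. A peak touched the 1 kb on either side of the 5′ end for 54, 54 and 55 genes in the S7KO libraries and for 55, 53 and 55 in the WT libraries, in the order 1, 2, 4 that is kept throughout. Both means were 54.3 (SD 0.577 in S7KO and 1.15 in WT, n = 3). Within 3 kb the counts were 56, 56 and 57 against 57, 56 and 57. In all 6 libraries together, 53 of the 60 genes (88.3%) had a peak within 1 kb and 56 (93.3%) within 3 kb, where all protein-coding genes gave 68.2% and 74.0%. Among like groups, 31 of 39 Hox genes and 60 of 63 Sox and forkhead genes had a peak within 1 kb in all 6 libraries. No gene of the 60 had a peak within 1 kb in every library of one genotype and in none of the other. Over 15500 protein-coding genes with such a peak in any library, 0.0452% did so in the S7KO direction and 0% in the WT direction.

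The 7 genes without a peak within 1 kb in all 6 libraries fell into different kinds. Tbx10 (chr19:3992752-3999512, plus strand) had no peak within 3 kb in any library. In each library its window held a peak lying between positions −7481 and −5798 relative to the 5′ end and one starting at 6915 to 7054, past its 3′ end. The 5′ ends of Acy3, Nudt8 and Doc2g also lie inside the window. Tbx19 (chr1:165137834-165160773, minus strand) had a peak of 197 covered bases over its start in S7KO 4 and of 219 in WT 1, and none in the other 4 libraries. By strength these peaks ranked 91.5 and 91.4 on a scale, defined below, that ends at 100 for the weakest. A peak starting 8442 to 8938 bases into the gene was present in all 6. Nkx2-6 and the stomach gene Nkx6-3 had no peak within 1 kb but one in all 6 libraries within 3 kb, and Nkx2-6 is named after its values were seen.

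Lhx4, a pituitary and motor neuron gene, and Tbx22, a palate gene, showed no peak at the outermost 5′ end of the gene in 6 and in 5 libraries. The promoter table places the start of Lhx4 further in, and lists starts further in for Tbx22 besides the outermost one. At the only start it lists for Lhx4, 9699 bases downstream, the covered length within 3 kb was 2861, 2820 and 2798 bp in S7KO and 2883, 2714 and 2711 bp in WT. At the second start of Tbx22, 8548 bases downstream, it was 1365, 1781 and 1166 bp against 1970, 835 and 1111 bp. Both genes thus had an open start in all 6 libraries, and their listing as closed rests on which start is used. In Irx5, a heart and retina gene, a peak came within 1 kb in 5 libraries and stopped at position −1148 in WT 2.

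**Figure D1:**
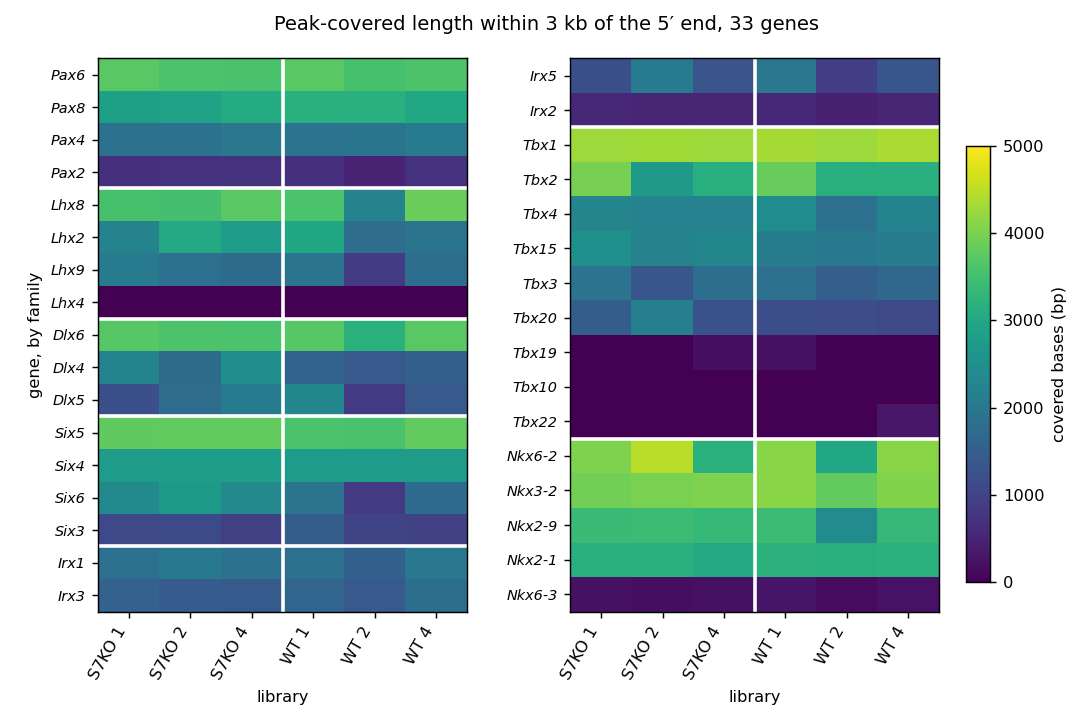
Bases covered by peaks within 3 kb of the 5′ end (colour scale in bp) for the 33 of the 60 genes named by rule and reported here (rows, by family and then by median) in the 3 S7KO and 3 WT libraries (columns, parted by a white line). Rows differ far more than columns: Tbx1 is at 4267 bp or more in every library and Tbx10 at 0 in every library, while WT 2 is the darkest column in many rows.

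The open stretches at these genes were long. The covered length, which is the number of bases within 3 kb on either side of the 5′ end that lie in a peak, had a median over the 60 genes of 2147, 2129 and 2146 bp in S7KO and 2141, 1731 and 2077.5 bp in WT. Over all protein-coding genes the medians were 1254, 1267 and 1245 bp and 1268, 1145 and 1251 bp. Of the 60 genes, 30 (50%) had a median of 2 kb or more over the 6 libraries, against 15.1% of all protein-coding genes, 20 of 39 Hox genes and 35 of 63 Sox and forkhead genes. Long cover was therefore shared with other families of developmental regulators. The cover lay more on the transcribed side, with a median of 1186 bp downstream and 614 bp upstream, and the same lean was present over all genes (686 and 381 bp).

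The longest cover belonged to Tbx1, the pharyngeal arch regulator, with 4271, 4285 and 4267 bp in S7KO and 4319, 4275 and 4357 bp in WT. Nkx6-2 followed with 4029, 4456 and 3198 bp against 4107, 2989 and 4107 bp. Nkx3-2 had 3930, 3994 and 4031 bp against 4111, 3804 and 4049 bp. The libraries of both genotypes overlapped in each of these genes, and Tbx1 varied least among them. The next 7 by median were Six5 (3790 bp), Dlx6 (3653 bp), Pax6 (3594 bp), Lhx8 (3564 bp), Nkx2-9 (3380 bp), Tbx2 (3172 bp) and Nkx2-1 (3172 bp). They include the eye regulator Pax6, the thyroid and lung regulator Nkx2-1 and Lhx8, which is needed in the oocyte.

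**Figure D2:**
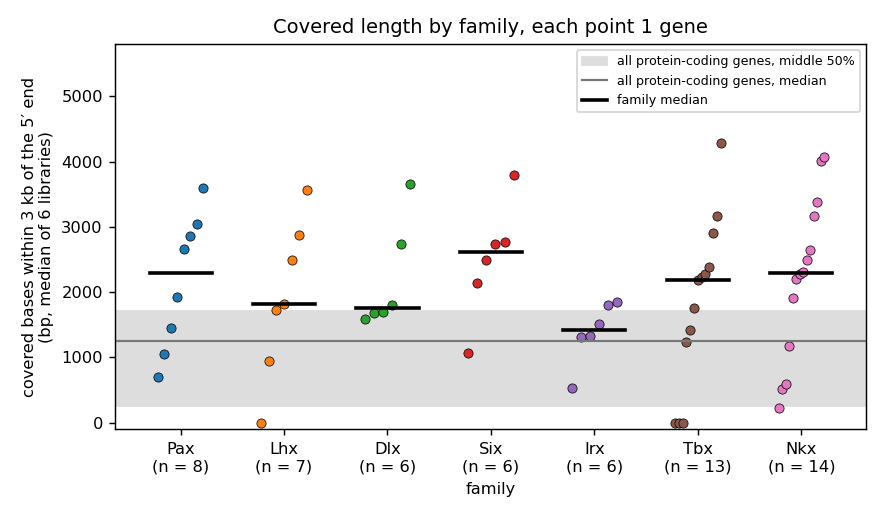
Covered bases within 3 kb of the 5′ end (bp, median of the 6 libraries) for each gene (point) by family, with the family median (black bar) and, in grey, the median and middle 50% of all protein-coding genes. Every family median lies above the median of all protein-coding genes, with the Six-family genes highest and the Irx genes lowest.

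By family, the median covered length was 2614 bp for the Six-family genes, 2295 bp for Pax, 2292 bp for Nkx, 2182 bp for Tbx, 1818 bp for Lhx, 1752 bp for Dlx and 1424 bp for Irx genes. The ranges of neighbouring families in this order overlapped widely. In the Pax family the ends were Pax6 and Pax2, a kidney and genital duct gene with 705 bp. At a further start of Pax2, 10305 bases into the gene, the median was 3325 bp, so its low value belongs to the outermost 5′ end. In the Lhx family Lhx8 and Lhx4 were at the ends, in the Dlx family Dlx6 and Dlx5 (1591 bp), and among the Six-family genes Six5 and Six3, a forebrain gene with 1062 bp. Irx1 (1855 bp) and Irx2 (539 bp) bounded the Irx genes, Tbx1 bounded the Tbx genes with Tbx10, Tbx19 and Tbx22 at a median of 0, and Nkx6-2 and Nkx6-3 (231 bp) bounded the Nkx genes. At the only start the promoter table lists for Irx2, 4390 bases further in, the median was 2199 bp. At that of Six3, 7226 bases further in, it was 2131 bp. The low values of Irx2 and Six3 thus also belong to the outermost 5′ end.

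Although long, these promoter peaks were weaker by rank than those of protein-coding genes in general. Each peak was ranked within its library by its −log10 q, where 0 stands for the strongest and 100 for the weakest peak. The median rank of the best peak within 1 kb was 40.8, 37.0 and 37.3 over the 60 genes in S7KO and 40.0, 45.8 and 40.9 in WT. Over all protein-coding genes it was 9.04, 7.91 and 7.29 in S7KO and 8.34, 9.40 and 7.30 in WT. All 6 libraries thus placed the typical promoter of these genes nearer the middle of the list and that of an average gene near its top. These ranks belong to the outermost 5′ ends, and starts further in were not ranked. The value over the 6 libraries was 40.9 for the 60 genes, 45.9 for Hox genes and 22.6 for Sox and forkhead genes.

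For a broad peak the peak caller averages −log10 q over the whole stretch, so rank and width were compared together, using the widest peak within 1 kb of each gene. Among genes whose widest peak was 2 kb or more, the median rank was 40.9 for 24 of the 60 genes and 17.5 for 2712 protein-coding genes. Between 1 and 2 kb it was 37.7 (20 genes) against 5.54 (9671 genes), and under 1 kb 55.1 (9 genes) against 15.1 (2226 genes). The weaker rank was therefore present in every width class. In all, 18 of 53 genes (34.0%) had a promoter peak ranked weaker than 50, against 6.30% of all protein-coding genes, and 3 of 53 one ranked better than 10, against 57.3%. The 3 ranked better than 10 included Tbx3 and Nkx6-1, a beta cell gene named after its values were seen. Of 31 Hox genes, 13 (41.9%) had a promoter peak ranked weaker than 50 and 0 one ranked better than 10. From the widest class to the narrowest their median ranks were 41.5, 43.3 and 50.6. Weak rank at a given width was therefore shared with the Hox genes.

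**Figure D3:**
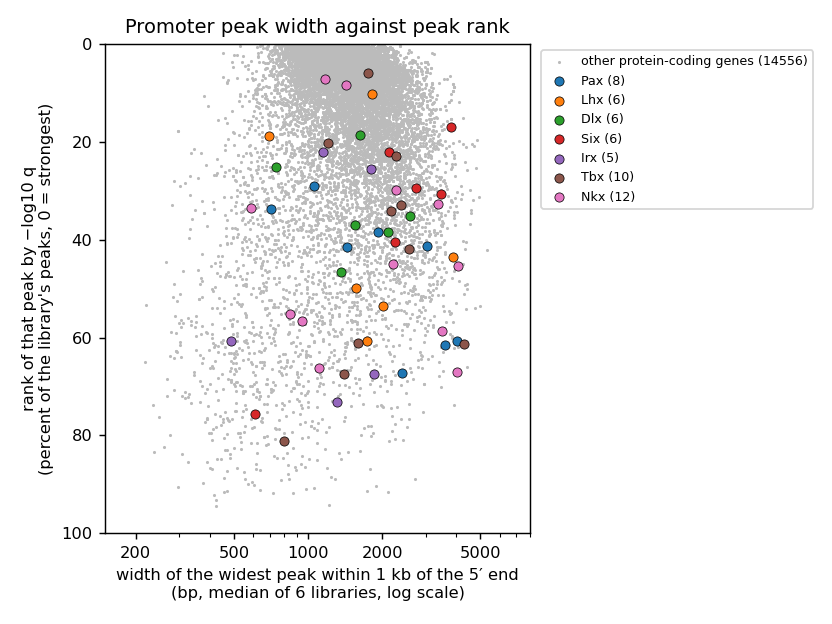
Width of the widest peak within 1 kb of the 5′ end (bp, log axis) against the rank of that peak by −log10 q (0 strongest, 100 weakest, axis inverted), each the median of 6 libraries, for the 53 genes with such a peak in all 6 (coloured by family) and 14556 other protein-coding genes (grey). The grey cloud is densest near rank 0 at 1 to 2 kb, while most coloured points lie below rank 20.

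Genes with a textbook part in the gonad, the germ line or the urogenital ducts stood on both sides of this pattern. Tbx3, a limb and mammary gland regulator, had the best promoter rank of the 60, at 5.96, with 1914, 1339 and 1816 covered bases in S7KO and 1844, 1516 and 1697 in WT. Lhx9, needed to form the gonad in both sexes and a marker of its somatic cells, ranked 10.2 with 2043, 1821 and 1777 bp against 1932, 883 and 1816 bp. At the only start the promoter table lists for Lhx9, 6395 bases further in, the covered length was 2585, 2558 and 2654 bp against 2849, 2452 and 2563 bp. At the 5′ end both genes combined strong peaks with medium width, and their genotypes overlapped. Six5, at rank 17.0, had 3787, 3793 and 3801 bp against 3584, 3568 and 3793 bp. Irx3 ranked 22.2 (1513 bp), Dlx5 25.2, Six4 30.8 (2768 bp), Pax2 33.8 and Dlx6 35.2. Pax8, which acts in thyroid, kidney and genital ducts, ranked 41.3 (3042 bp), Tbx2 41.9, Lhx2 49.95 (2488 bp) and Lhx8 53.5.

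The strongest peak around these genes usually lay away from the outermost 5′ end. Taking each gene with 10 kb on either side as its window, the strongest peak of the window touched the 1 kb around the 5′ end in all 6 libraries for 9 of 60 genes (15%) and in none for 35 (58.3%). Over all protein-coding genes with peaks in all 6 libraries the shares were 46.1% and 40.5%. Of the 42 genes in the promoter table, 17 had a listed start more than 1 kb from the outermost 5′ end. In Lhx4 the strongest peak lay over the only listed start, 9699 bases in, in all 6 libraries. These shares therefore describe the outermost 5′ ends, and the part of starts further in was not tested. In Irx5 the strongest peak began at positions −2161 to −2038, reaching the start in S7KO 2 and WT 1 and stopping short of the nearest 1 kb in the other 4. It ranked 0.540, 1.67 and 0.701 in S7KO and 1.40, 0.728 and 0.768 in WT, the best median of the 60 windows. In Lhx9 the strongest peak was a region 7719 bases upstream (chr1:138856558-138857214), ranked 2.85, 2.64 and 2.58 against 2.503, 2.99 and 2.32. Its median, 2.61, is also that of the promoter peak of the neighbouring gene 2310009B15Rik, so it belongs to that gene's 5′ end. In the same way the peak past the 3′ end of Tbx10, with a median rank of 1.81, was the promoter peak of Nudt8. Each of these sites was called in all 6 libraries, and its ranks in the genotypes overlapped.

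Peaks were also dense farther out. Over the whole window the median gene of the 60 had 5 peaks and 5807 covered bases, against 3.5 and 3372 over all protein-coding genes. Hox genes had 6 and 6391, and Sox and forkhead genes 4 and 4958, so such cover was not particular to the 60. The 60 windows joined into 56, of 2467 kb in all, since 8 genes share a window with another of the 60. They held 304, 316 and 319 peaks in S7KO and 307, 286 and 324 in WT, covering 362, 369 and 363 kb against 376, 286 and 365 kb. The mean difference, S7KO minus WT, was 7.33 peaks (pooled SD 14.6) and 22.4 kb (pooled SD 34.7), both smaller than the spread between libraries. Without WT 2 the differences were −2.5 peaks and −5.65 kb, so their direction rested on that library, which had the smallest cover in 52 of the 60 windows and in 69.1% of the windows of all protein-coding genes.

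Farther than 3 kb from any protein-coding 5′ end, 11.2% ± 0.133 (SD, n = 3) of the windows' length was covered in S7KO and 10.4% ± 1.78 in WT. In the windows of all protein-coding genes the values were 4.15% ± 0.224 and 3.78% ± 0.627. Within 3 kb of a 5′ end the 60 genes had 33.6% ± 0.276 and 32.1% ± 3.10, against 19.2% ± 0.0741 and 18.5% ± 1.05. The higher cover was thus present both near and away from the outermost 5′ ends and in every library. The surroundings also differ in another way, since 4 of the 60 windows (6.67%) held the 5′ end of another protein-coding gene, against 42.0% over all protein-coding genes.

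**Figure D4:**
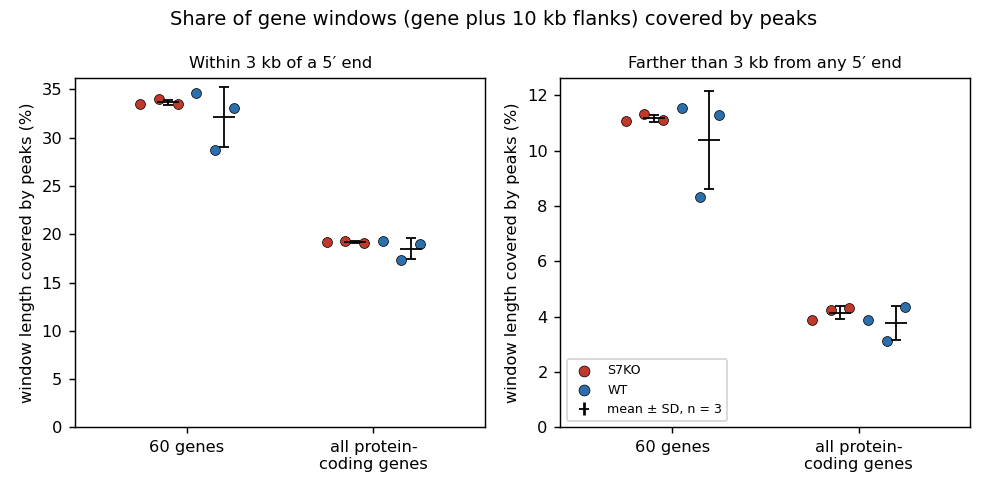
Share of window length (gene plus 10 kb flanks, %) covered by peaks within 3 kb of a 5′ end (left) and farther from any 5′ end (right), for the 60 genes and for all protein-coding genes, with 1 point per library and the mean ± SD of each genotype (n = 3). The 60 genes lie above all genes in both panels, and the low WT point in each set is WT 2.

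Peaks of the 6 libraries joined into 339 regions in these windows, of which 252 (74.3%) were found in all 6 libraries, against 57.1% of 158725 regions genome-wide. Within 3 kb of a 5′ end 74 of 86 were found in all 6, and farther out 178 of 253. Regions of 2 kb or more numbered 83, touched 48 of the 60 genes' windows and were all found in all 6 libraries. No region was present in every S7KO library and absent from every WT library, or the reverse, where 0.416% and 0.0743% of all regions were. In both directions there were regions found in 2 libraries of one genotype and in none of the other. One lay 1491 bases upstream of Tbx20 and was found in 2 S7KO libraries, and one lay 5660 bases upstream of Nkx2-1 and was found in 2 WT libraries. WT 2 alone lacked 12 of the 339 regions.

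Between genotypes, the difference in median covered length was 157.5 bp (S7KO 2141 ± 10.1, WT 1983 ± 221, SD, n = 3; pooled SD 156), with the low value in WT 2. Without WT 2 it was 31.4 bp, and with replicates 1 and 4 only 37.25 bp. With 3 libraries on each side, a gene was called when every value of one genotype exceeded every value of the other. An exact 2-sided permutation test then gives p = 0.1, its smallest value, so that no single gene could pass 0.05. Of 58 genes with cover within 3 kb, 4 were higher in every S7KO library, against 6.89% of all protein-coding genes tested, and 0 were higher in every WT library, against 1.48%. The share among these genes, 6.90%, was that of the background. WT 2 was the lowest of the 6 libraries in 37 of the 58 genes. When WT 2 was left out, 5 genes were called in S7KO and 8 in WT, against 8.42% and 8.91% of all genes, so the lean towards S7KO rested on that library. Leaving out WT 1 gave 11 genes in S7KO against 19.1% of all genes, and leaving out S7KO 1 gave 7 against 12.5%. In the WT direction, leaving out S7KO 2 or S7KO 4 gave 2 genes, against 3.78% and 3.49% of all genes, and leaving out WT 4 gave 1, against 3.23%.

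The 4 genes were Six6, Dlx4, Tbx20 and Tbx15. Six6 (chr12:72939882-72944899) had 2400, 2731 and 2348 covered bases in S7KO and 1928, 855 and 1749 in WT, a ratio of means of 1.65. The main peak began at positions −778 to −514 in all 6 libraries. It ran to 1621, 1997 and 1790 bases downstream in S7KO and to 1413, 327 and 720 bases in WT, and WT 4 had a separate weak peak beyond. The values nearest each other, 2348 and 1928 bp, were 420 bp apart, while the WT values alone spanned 1073 bp.

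Dlx4 (chr11:95140447-95146294, minus strand), a gene of the jaw arches and placenta, had 2263, 1768 and 2442 bp in S7KO and 1600, 1387 and 1525 bp in WT, a ratio of 1.43. Its main peak had about the same ends in all 6 libraries. A second peak upstream reached to positions −2474 and −2481 in S7KO 1 and S7KO 4, and stopped between −3953 and −3702, outside the 3 kb limit, in the other 4 libraries. S7KO 2 thus resembled WT there, and stood above it by 168 bp. A further, weak peak downstream began at 2821, 2833 and 2829 in S7KO and at 2959, 3058 and 2963 in WT. The 3 kb limit cut through that peak, or left it out in WT 2, and the cover of S7KO 2 includes the part inside.

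Tbx20, a heart gene (chr9:24720812-24774303, minus strand), had 1484, 2165 and 1254 bp in S7KO and 1210, 1180 and 1098 bp in WT, a ratio of 1.41. S7KO 1 and S7KO 2 had an extra weak peak upstream of the promoter, and S7KO 4 was only 44 bp above the highest WT library. The next peak downstream began at 3304, 3232 and 3267 in S7KO and at 3085, 3303 and 3051 in WT. The 3 kb limit thus left it out in all 6 libraries, by little in WT 1 and WT 4. Tbx15, a skeletal gene (chr3:99240348-99354260), had 2503, 2242 and 2289 bp in S7KO and 2122, 2019 and 2116 bp in WT, a ratio of 1.12. The gap between the genotypes was 120 bp, less than the range of the S7KO values (261 bp). Over its whole window Tbx15 had 11535, 11383 and 11225 bp in S7KO and 11846, 9050 and 12262 bp in WT, which overlap. By that measure Tbx15 was called towards WT without WT 2. With replicates 1 and 4 only, both Tbx15 and Tbx20 were called towards WT over the window. When every library was cut to its 105728 strongest peaks, Tbx20 was no longer called and the other 3 were.

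Over the whole windows, 3 of 60 genes had more covered bases in every S7KO library (7.36% of all protein-coding genes tested) and 1 in every WT library (0.589%). Without WT 2 there were 4 and 8 (8.03% and 7.87% of all genes). Leaving out any other single library gave 5 to 12 in S7KO (12.1% to 26.2% of all genes) and 1 or 2 in WT (1.1% to 1.75%). The first group included Dlx4, with 5851, 4383 and 6021 bp in S7KO and 4218, 3368 and 4241 bp in WT. It also included Six6, with 3914, 4410 and 3937 bp against 3442, 2187 and 3571 bp. In both genes the difference within 3 kb of the 5′ end is part of these sums. Pax4, a pancreatic beta cell gene (chr6:28442334-28449340, minus strand), had 2784, 2679 and 2708 bp in S7KO and 3765, 2787 and 3144 bp in WT, where the lowest WT library was 3 bp above the highest S7KO library. The higher cover of WT 1 lay in the peak past the 3′ end of Pax4.

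By number of peaks, 0 of 60 genes were higher in every S7KO library (1.38% of all genes) and 1 in every WT library (0.227%). Without WT 2 the WT direction held 3, against 1.61% of all genes. The gene called with all libraries was Tbx4 (chr11:85886367-85916097), which directs the hindlimb and lung buds, with 6, 6 and 6 peaks in S7KO and 7, 7 and 7 in WT. The other peaks were matched across libraries. One stretch differed, running unbroken from 8393, 8358 and 8358 to 10735, 10735 and 10733 bases downstream of the 5′ end in S7KO. In WT it was broken into a part that ended at 9322, 9092 and 9418 bases and a part that began at 10239, 10483 and 10417 bases. The only start that the promoter table lists for Tbx4 lies 10398 bases downstream, inside the second part in WT 1 and just before it in WT 2 and WT 4. Around that start the covered length within 3 kb was 2343, 2378 and 2376 bp in S7KO and 1426, 1009 and 1380 bp in WT, which do not overlap. That value was taken after the break had been seen, and it describes the same stretch.

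**Figure D5:**
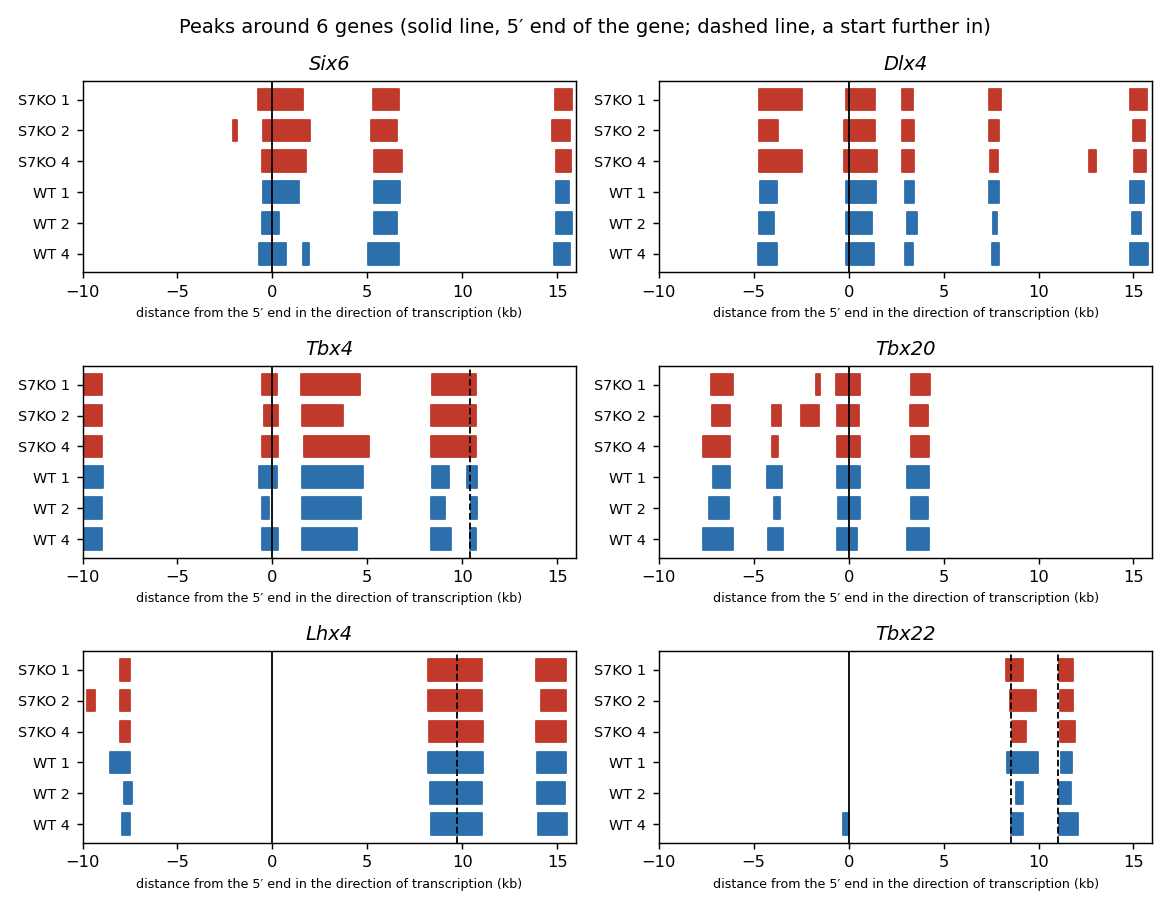
Peaks (bars, red S7KO, blue WT, 1 row per library) from 10 kb before to 16 kb after the 5′ end (solid line, x axis in kb along the direction of transcription) of 6 genes, with further starts of the promoter table as dashed lines. The S7KO bars of Six6 reach farther right than the WT bars, the stretch at the dashed line of Tbx4 is unbroken in S7KO and split in WT, and Lhx4 and Tbx22 have bars at the dashed lines in all 6 libraries.

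Partners and regulators of these families were open as well. The partner list held 19 genes, for LIM cofactors, the Eya and Dach proteins that act with Six-family factors, and Pbx and Meis homeodomain proteins. Of the 19, 16 had a peak within 1 kb in all 6 libraries. By covered length within 3 kb, 0 were called between genotypes, where all protein-coding genes gave 6.89% towards S7KO and 1.48% towards WT. With 19 genes, nothing is read from 0 calls. The median covered length of the partner genes was 1587 bp and their median promoter rank 17.7. Lmo2, a blood cell gene, Ldb1 and Lmo3 were the exceptions. Of 22 genes for Polycomb proteins, 21 had such a peak in all 6 libraries, and Cbx7 had none within 3 kb. The Polycomb genes ranked 7.53, close to all protein-coding genes at 8.44, with a median covered length of 1640 bp. Of these, 3 (Cbx6, Mtf2 and Pcgf3) were higher in every S7KO library among 21 tested, and 0 in every WT library, where all protein-coding genes gave 6.89% and 1.48%. The lean of that background towards S7KO rested on WT 2, as above, and nothing particular to the Polycomb genes is read from 3 calls.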

How the data were processed

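Peak lists were deposited by the authors, 1 for each of the 6 ATAC-seq libraries. Per the methods and the labels, reads were aligned to mm10 with Bowtie2 2.4.4.1, filtered for mapping quality with SAMtools 1.19.2 and for unique, non-duplicate reads with Sambamba, cleared of mitochondrial reads, shifted for the Tn5 cut and limited by fragment length, which drops the shortest fragments. Each library had its own broad peak calls, made by MACS2 (version 2.2.5). The study's results describe calls on merged profiles of nucleosome-free fragments instead. Which fragments entered the deposited lists, and so how far they set peak width, is therefore not settled. The deposited lists give peak positions and a −log10 q, and the largest q value was 0.0958 to 0.0983 per library. They hold no read counts, so sequencing depth is unknown and only peaks, cover and rank could be compared.

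The genes and lists were chosen with earlier results of these data known. Genes and 5′ ends came from RefSeq (GRCm38.p6), with strand from the promoter table (42 of the 60 genes) or from the GENCODE gene of the same symbol (18). A strand was found for 21436 of 21883 protein-coding genes. Peaks counted from 1 bp of overlap with 1 kb or 3 kb on either side of the 5′ end, or with the gene and 10 kb flanks. Genotypes were compared over libraries as non-overlap of the 3 and 3 values, equal to the smallest exact permutation p of 0.1, for all genes at once. Scripts (Python 3.11.15, pandas 2.3.3, NumPy 2.4.6) were tested on simulated data.

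Members were named by fixed rules: the 10 with the longest cover, those without a peak within 3 kb or with one in only some libraries, those whose genotypes did not overlap, the extremes of each family, and 15 with a known part in gonad, germ line or genital ducts. Some genes these rules name are not reported here. Alternatives were a stricter q (−log10 q of at least 2), equal numbers of peaks, peak centres or peaks of 300 bp or more, gaps of up to 200 bp joined, replicates 1 and 4 only, each library left out, same-numbered pairs, and, added after seeing the data, all starts of the promoter table.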

Additional observations from a re-analysis of the deposited data

How the results depend on the processing

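Of 154 alternative values for 13 results, 5 reversed, 38 moved and 111 stayed within 1 SD between libraries or, for counts, within 1.5 times. That SD is wide: the difference in median covered length, 157.5 bp, ranged from 31.4 bp (without WT replicate 2) to 236 bp (without WT replicate 1) and was 37.25 bp with replicates 1 and 4 only. The S7KO minus WT difference in peaks in the windows reversed to −10.7 with equal numbers of peaks, to −4 with replicates 1 and 4 only and to −2.5 without WT replicate 2, and the difference in covered length to −7.85 kb with replicates 1 and 4 only and −5.65 kb without WT replicate 2. Over all libraries left out in turn these differences spanned −2.5 to 16.5 peaks and −5.65 to 39.3 kb. The difference in genes with a peak within 1 kb became −1 with equal numbers of peaks.

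Each count of called genes or regions is given with the share of all genes or regions called under the same setting. With replicates 1 and 4 only, the WT direction held 12 genes (15.9%) by covered length within 3 kb, 5 (3.17%) by peak number, 21 (13.9%) by covered length in the window and 3 regions (1.02%), and the S7KO direction 6 genes (12.9%) by covered length in the window. Leaving out 1 library gave, by covered length within 3 kb, 5 to 11 genes for S7KO (8.42% to 19.1%) and 0 to 8 for WT (2.8% to 8.91%). By peak number it gave 0 to 2 (1.73% to 9.31%) and 1 to 3 (0.352% to 1.61%), and by covered length in the window 4 to 12 (8.03% to 26.2%) and 1 to 8 (1.1% to 7.87%). Regions numbered 0 to 3 (0.589% to 1.87%) and 0 to 2 (0.154% to 0.505%). A −log10 q of at least 2 gave 1 S7KO region (0.353%), equal numbers of peaks 1 WT region (0.199%), leaving out peaks under 300 bp 2 WT genes by covered length in the window (0.617%), and using all starts of the promoter table gave 1 WT gene within 3 kb (1.5%).

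For same-numbered libraries the correlations of their deviations were 0.122, −0.00514 and 0.124, so whether the numbers mark pairs was not settled. Peak numbers were close for replicate 1 (119786 in S7KO, 118881 in WT) and replicate 4 (133299 and 133663), and farther apart for replicate 2 (127985 and 105728). A replicate block, which asks for the same sign in all 3 same-numbered pairs, gave 7 S7KO genes (18.3%) and 1 WT gene (4.97%) by covered length within 3 kb, 1 S7KO gene (4.48%) by peak number, and 8 (21.5%) and 2 (2.23%) by covered length in the window. By covered length within 3 kb, Dlx4, Six6 and Tbx15 were called under every alternative run and Tbx20 under all but equal numbers of peaks. Pax4 and Tbx4 were called under all run for their measures. Leaving out a library, using replicates 1 and 4 only and the replicate block cannot end such a call. These settings therefore bear on the counts only. Without read counts, a difference in signal inside a peak could not be detected.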
